A study of Mus musculus with 2 samples.

Results

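Collagen chains and the genes that modify, fold and cross-link them were followed in interscapular brown fat, the depot between the shoulder blades, of wild-type (WT) and double-knockout (DKO) mice. Members were all probes whose gene name in the array files was a collagen chain (Col, a number, a, a number) or one of 11 named genes: Serpinh1, P4ha1, P4ha2, P4hb, Plod1, Plod2, Plod3, Lox, Loxl1, Loxl2 and Pcolce. This gave 48 of 41174 probes and 35 of 38354 gene names in the files. They were divided by role into 13 probes of 8 fibrillar collagen genes, 8 probes of 5 basement membrane collagen genes, 18 probes of 14 other collagen genes and 9 probes of 8 modifying genes. P4hb, Loxl1, Loxl2 and several chains, Col3a1, Col4a1 and Col4a2 among them, carry an accession or no symbol in that column. A further 31 probes were therefore added by accession (21 probes) or by the written description (10 probes), after the data had been seen, and are named as added wherever they appear.

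WT animals were C57BL/6 males. DKO animals were males labelled C57BL/6 in which 2 receptor genes had been disrupted, Rora (RORa-/-) being one of them; the labels mention no promoter, Cre or treatment for either group. Tissue came from 4 mice per genotype, 2 to 3 months old (8 to 12 weeks in another label), around circadian time 20. Both genotypes shared each of the 2 dual-colour arrays: DKO was in Cy5 on the first and in Cy3 on the second. The sources used here do not say whether the mice were pooled or whether both arrays carried the same RNA, so the arrays counted as 1 replicate per genotype. No test between genotypes could then be made. Every SD below is over 2 arrays, covers labelling, dye and hybridisation, and cannot be taken as the spread between mice.

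Collagens are secreted proteins built from 3 chains wound into a triple helix. Fibrillar collagens (types I, II, III, V, XI, XXIV and XXVII) pack into the fibres that give tissue its tensile strength, whereas type IV forms the sheet-like network of basement membranes, which surround every adipocyte and blood vessel. Chains are hydroxylated by prolyl and lysyl hydroxylases and held by the chaperone Hsp47 in the endoplasmic reticulum; after secretion their propeptides are cut off and lysyl oxidases cross-link them. In adipose tissue they are made mainly by fibroblast-like stromal cells, vascular cells and the adipocytes themselves.

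Most collagen and collagen-modifying probes showed little difference between DKO and WT brown fat, and one member stood apart: Serpinh1, the gene of Hsp47, was 1.74-fold lower in DKO. Ratios are log2 of DKO over WT after background correction with an offset of 50, which shrinks the ratios of dim probes. A probe was called measured when its signal was well above background (2.6 background SDs, the software's own mark) in at least 1 genotype on both arrays. That held for 38 of the 48 probes, for 30 genes. Of these 38, 30 (78.9%) had a mean ratio within 0.1 of 0 in either direction and 36 (94.7%) within 0.2. The same shares over all 32421 measured probes were 83.2% and 94.1%.

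By a 2-fold rule (mean at least 2-fold, at least 1.5-fold the same way on each array, well above background in the higher genotype) 0 members were higher and 0 were lower. Over all measured probes that rule called 0.0987% higher and 0.0216% lower. By a 1.5-fold rule (mean at least 1.5-fold, each array at least 1.2-fold) 0 members were higher, against 0.336% of all measured probes. By the same rule 1 of 38 was lower (2.63%), against 0.234%. Over all measured probes these were 109 higher and 76 lower calls, and with median centring in place of loess 162 and 49, with Serpinh1 called lower under either. Software p-values from an error model of a single array, deposited with each ratio, were under 0.01 on both arrays for 0 members on the higher side, against 0.494%, and for 1 on the lower side, against 0.423%. Serpinh1 was the member called in both counts. With 1 member called, the shares rest on that single probe. A probe not called may still differ, because in simulated data both rules missed most changes of the size of their own cutoff.

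**Figure D1:**
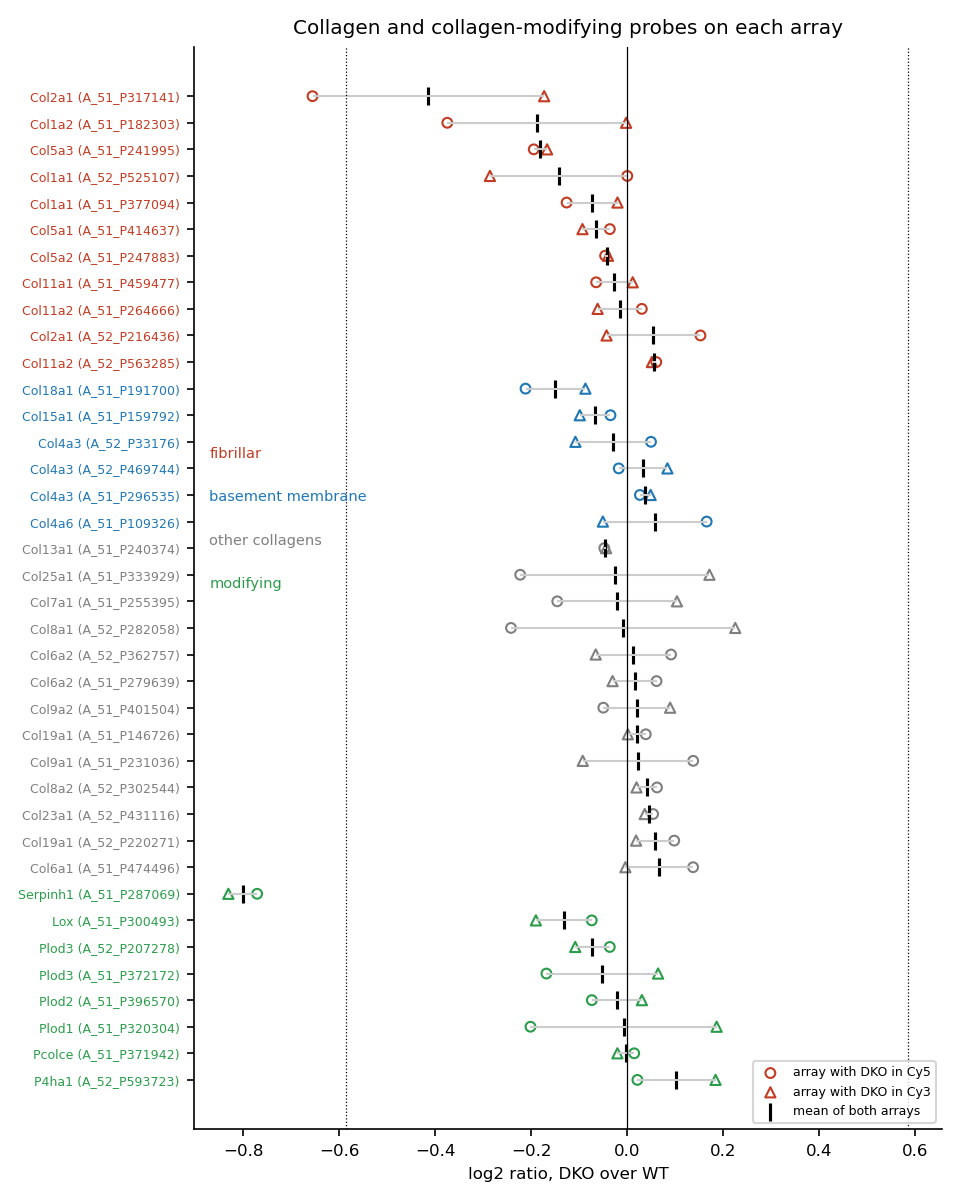
Log2 ratio of DKO over WT (horizontal axis) for the 38 measured member probes, one row each, coloured by role; circles are the array with DKO in Cy5, triangles the array with DKO in Cy3, black bars their mean, and dotted lines mark 1.5-fold. Serpinh1 lies beyond the lower dotted line on both arrays, and Col2a1 (A_51_P317141) crosses it on 1 array only.

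Serpinh1 encodes Hsp47, a chaperone of the endoplasmic reticulum that binds newly made procollagen. Its probe (A_51_P287069, gene ID 12406) was well above background in both genotypes on both arrays. In WT the normalised log2 intensity was 12.50 on each of the arrays. In DKO it was 11.73 where DKO carried Cy5 and 11.67 where it carried Cy3, the order kept for all pairs of values. Both DKO values lay below both WT values, and exchanging the dyes left the direction in place. The ratios were -0.77 and -0.83, a mean of -0.80 ± 0.04 (SD, 2 arrays). The software's own ratio was -0.81 ± 0.06, or 1.75-fold lower, with deposited p-values of 9.69e-06 and 1.12e-06. Of 32421 measured probes, 30 had a lower mean ratio, and among the 3218 bright ones (average log2 intensity of at least 9, a limit set after seeing the data) 18 did. The 1.5-fold rule called 1.03% of these bright probes lower and 1.8% higher.

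Promoter sequence is shown for the member that was called and for Col1a2 and Col3a1, chains of the main fibre-forming types I and III, chosen from RefSeq's table after the values were seen. The windows are the 250 bases before each transcription start in GRCm38.p6, written 5′ to 3′ on the gene's strand, with capitals for matches to the motifs searched. Serpinh1 lies at chr7:99353240-99353489 (minus strand), Col1a2 at chr6:4505368-4505617 (plus strand) and Col3a1 at chr1:45311288-45311537 (plus strand).
Serpinh1: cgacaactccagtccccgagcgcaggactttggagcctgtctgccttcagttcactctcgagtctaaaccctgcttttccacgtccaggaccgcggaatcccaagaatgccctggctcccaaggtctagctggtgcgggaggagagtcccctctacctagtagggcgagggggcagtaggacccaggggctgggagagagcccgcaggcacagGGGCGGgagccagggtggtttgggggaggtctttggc
Col1a2: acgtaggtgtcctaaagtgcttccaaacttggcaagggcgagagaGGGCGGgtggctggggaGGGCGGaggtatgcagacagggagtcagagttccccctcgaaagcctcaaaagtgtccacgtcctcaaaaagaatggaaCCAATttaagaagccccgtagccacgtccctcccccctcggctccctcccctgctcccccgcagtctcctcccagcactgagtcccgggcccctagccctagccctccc
Col3a1: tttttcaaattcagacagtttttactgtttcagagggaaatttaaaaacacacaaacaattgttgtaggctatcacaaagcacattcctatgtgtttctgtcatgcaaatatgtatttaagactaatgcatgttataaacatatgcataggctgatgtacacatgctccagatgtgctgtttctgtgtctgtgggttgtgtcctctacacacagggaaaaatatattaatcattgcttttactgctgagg
The Serpinh1 window held 1 GC box (GGGCGG) at -37 to -32. The Col1a2 window held 2 GC boxes, at -205 to -200 and -188 to -183, and a CCAAT box (CCAAT) at -109 to -105. The Col3a1 window held none of the motifs searched.

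Windows were found for 38 of the 50 genes of the rule and added probes, 41 windows in all. Both strands were searched for 4 motifs. The ROR half-site AGGTCA, the core letters to which ROR receptors bind, was in 14.6% of these windows against 14.0% of all 32851 windows in the table. CCAAT was in 34.15% against 33.85%. The GC box GGGCGG was in 63.4% against 32.7%, and the heat shock pair GAANNTTC in 2.44% against 6.69%. The comparison was with every window, not with windows matched for base composition, and no difference was tested. The windows with AGGTCA were 6, those of Col11a1, Col23a1, Col24a1, Col4a4, Col7a1 and Col9a1, and the 3 windows shown were not among them. A match describes the letters and is no evidence that a factor binds.

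The other measured modifying probes of the rule had mean ratios between -0.13 and 0.10. Pcolce, which enhances cutting of the procollagen C-propeptide, gave 9.13 and 9.56 in WT and 9.15 and 9.53 in DKO, with a ratio of -0.00 ± 0.02. Its genotypes overlapped, and the array was the larger source of difference for this probe. P4ha1, a catalytic subunit of prolyl 4-hydroxylase, had the highest ratio of the class, 0.02 and 0.18 on the arrays (0.10 ± 0.12). Its software ratio was 0.21 ± 0.27, so the mean was smaller than the spread. The mean ratios of the lysyl hydroxylases were close to 0: Plod1 was at -0.20 and 0.19 (-0.01 ± 0.27), and Plod2 was at -0.02 ± 0.07. Both are dim probes (average log2 intensity 6.55 and 6.43), so their ratios are shrunk and carry little precision. The software's ratios for Plod1 were -0.58 and 0.56. For Plod3, the brighter probe gave 8.75 and 8.57 in WT and 8.58 and 8.63 in DKO, a ratio of -0.05 ± 0.16, and the second probe gave -0.07 ± 0.05. Pcolce, Plod1, Plod2 and the brighter Plod3 probe changed sign with the dyes. Lox, a lysyl oxidase that starts cross-linking, was below 0 on both arrays, at -0.07 and -0.19 (-0.13 ± 0.08). Its probe is dim too (average log2 intensity 6.675), and its software ratio was larger, -0.30 ± 0.17. The P4ha2 probe of the rule was not measured.

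Among the added modifying probes, Loxl1 was higher in DKO. Loxl1, a lysyl oxidase of the same family best known for its part in elastic fibres, is listed in the files under an accession (A_51_P304239), so the name rule misses it. Its normalised log2 intensity was 7.36 and 7.40 in WT and 7.97 and 8.08 in DKO. Both DKO values exceeded both WT values, with ratios of 0.61 and 0.68 (0.65 ± 0.05, 1.56-fold, called by the 1.5-fold rule). For this dimmer probe the software's ratio was larger, 0.88 ± 0.10 or 1.84-fold, with deposited p-values of 1.21e-05 and 4.61e-07. Of 32421 measured probes, 87 had a higher mean ratio. With the added probes, 63 of 79 were measured, 1 (1.59%) was called higher and 1 (1.59%) lower, against the 0.336% and 0.234% given above. Since the added probes were chosen after the data were seen, these shares only describe them. The remaining added modifying probes were not called: P4ha1 was at 0.03 ± 0.20, P4ha2 at -0.01 ± 0.02, Loxl2 at 0.02 ± 0.06 and P4hb, the disulfide isomerase subunit of prolyl 4-hydroxylase, at -0.05 ± 0.34.

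**Figure D2:**
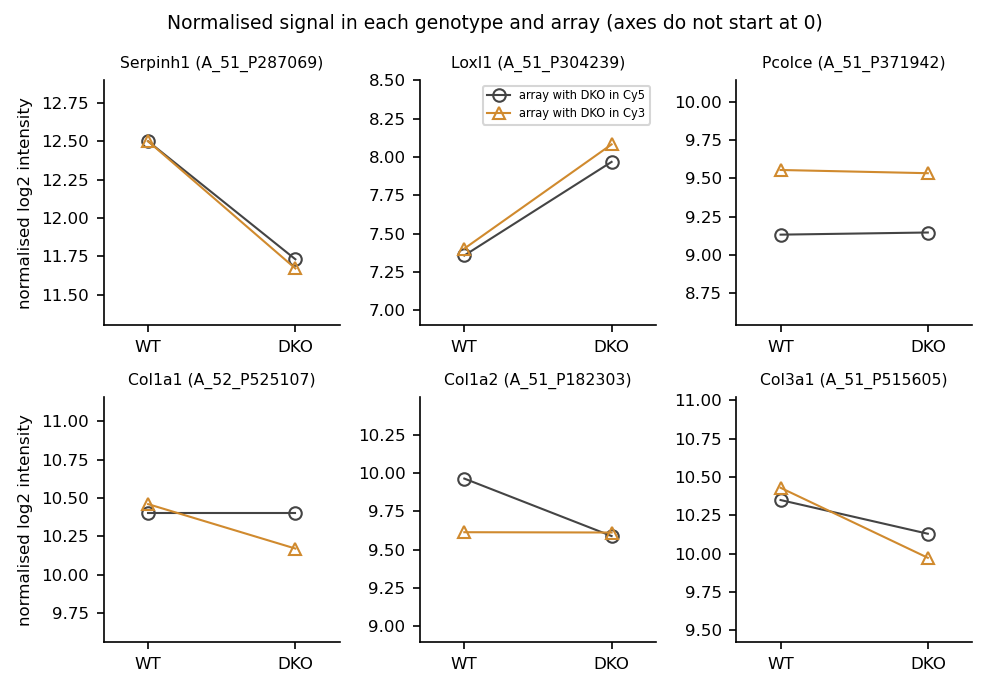
Normalised log2 intensity (vertical axis, not starting at 0, each panel spanning the same range of log2 units) in WT and DKO for 6 probes; lines join the genotypes of one array. Serpinh1 is lower and Loxl1 higher in DKO on both arrays, the Pcolce lines are nearly flat, and the DKO value of the fibrillar chains lies clearly below WT on 1 array and within 0.01 of it on the other (Col1a1, Col1a2), or below it on both by differing amounts (Col3a1, an added probe).

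None of the fibrillar collagen probes met either call rule, and as a class their ratios lay slightly below 0. The median ratio of the 11 measured fibrillar probes was -0.06, against 0.00 for all measured probes. On the single arrays the median was -0.05 and -0.04. Below 0 on both arrays were 6 of 11 (54.5%), against 17.8% of all measured probes, and 1 of 11 (9.09%) was above 0 on both, against 19.5%. Among the 6 was a Col1a2 probe that stood at -0.002 on the array with DKO in Cy3. Probes for one gene and chains of one trimer are not independent, so these counts describe the class and are no test of it. With median centring in place of loess, the fibrillar median was 0.00 (0.0044), and the median of the bright probes rose to 0.14. In whole tissue, fewer cells of a type and less RNA per cell cannot be told apart.

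The median ratio lay further below 0 for types I and V than for types II and XI, although the lowest fibrillar probe was one of Col2a1 (type II). Col1a1 and Col1a2 encode the chains of type I collagen, the main fibre protein of connective tissue. The bright Col1a1 probe (A_52_P525107) gave 10.40 and 10.46 in WT and 10.40 and 10.17 in DKO, a ratio of -0.14 ± 0.20. The bright Col1a2 probe (A_51_P182303) gave 9.96 and 9.61 in WT and 9.59 and 9.61 in DKO, a ratio of -0.19 ± 0.26. Each of these probes differed between genotypes on 1 array and hardly on the other, and it was not the same array. A dimmer Col1a1 probe was at -0.07 ± 0.07. Type V chains regulate the width of type I fibres. Col5a3 was at -0.19 and -0.17 (-0.18 ± 0.02), with 7.91 and 8.13 in WT and 7.71 and 7.96 in DKO. Both arrays gave Col5a3 nearly the same difference, although the genotype values overlapped between arrays, and its deposited p-values were 0.124 and 0.184. Col5a1 was at -0.06 ± 0.04 and Col5a2 at -0.04 ± 0.00. Of the 6 measured probes of types I and V, 5 (83.3%) were below 0 on both arrays, against 17.8% of all measured probes. The median of the 6 was -0.11. The exception was the bright Col1a1 probe, which stood at 0.00 on the array with DKO in Cy5. The bright Col1a2 probe was among the 5 although it stood at -0.002 on the array with DKO in Cy3. The count therefore turns in part on values very close to 0. The 5 measured probes of types II and XI, cartilage-type chains, had a median of -0.02. The difference between these subsets was not tested, and the split was made with the values in view.

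Col2a1 showed how far probes of one gene can part. Probe A_51_P317141 had the lowest fibrillar ratio, -0.66 and -0.17 (-0.41 ± 0.34), with 8.14 and 8.02 in WT and 7.48 and 7.85 in DKO. Both DKO values lay below both WT values, but its deposited p-value was 5.76e-06 on 1 array and 0.164 on the other. The second Col2a1 probe (A_52_P216436) gave 10.07 and 10.03 in WT and 10.22 and 9.98 in DKO, a ratio of 0.05 ± 0.14. The highest fibrillar ratio belonged to Col11a2 (A_52_P563285), at 0.06 ± 0.01, and its second probe was at -0.02 ± 0.07. Of 7 cartilage and bone marker genes, 4 were measured, with mean ratios between -0.01 and 0.03, and Ibsp, Matn1 and Matn3 were not measured.

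Type III collagen, which accompanies type I in soft tissue, was read only by added probes. Col3a1 A_51_P515605 gave 10.35 and 10.43 in WT and 10.13 and 9.97 in DKO, so DKO was lower on both arrays without overlap. Its ratio was -0.34 ± 0.17 (1.26-fold lower), and 297 of the 32421 measured probes lay below it. The deposited p-values were 0.202 and 0.00196. A second measured Col3a1 probe was at 0.01 ± 0.08. It was much dimmer (average log2 intensity 6.77 against 10.22), where the offset shrinks ratios, so it cannot decide whether the difference is shared. Added probes of Col24a1 (0.11 ± 0.35) and Col27a1 (0.04 ± 0.03) were not lower. With all added fibrillar probes the class median was -0.03, from 16 measured probes.

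**Figure D3:**
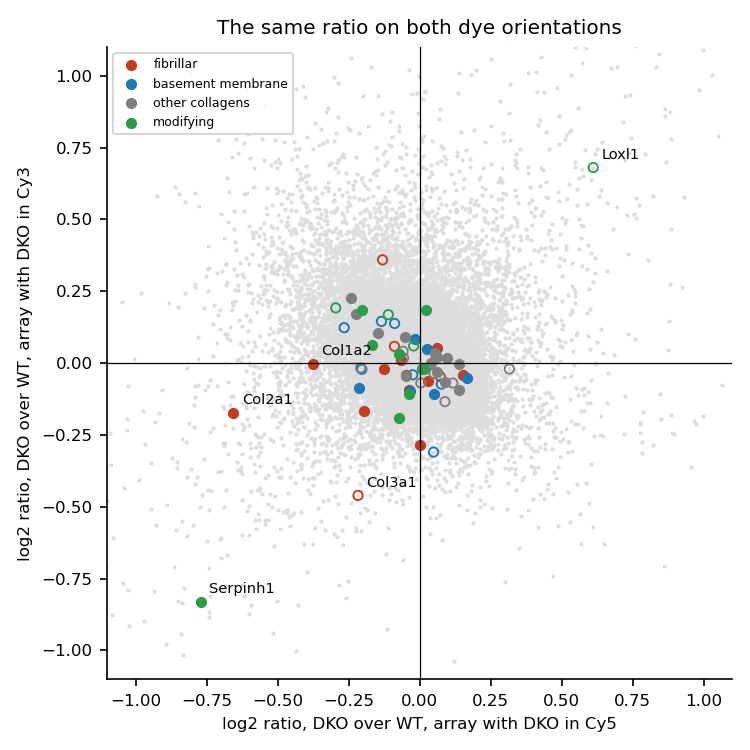
Log2 ratio of DKO over WT on the array with DKO in Cy5 (horizontal) against the array with DKO in Cy3 (vertical), for all measured probes (grey) and members coloured by role, filled by the name rule and open when added; 78 probes lie outside the axes. Serpinh1 and Loxl1 sit near the diagonal on opposite sides of 0, while Col1a2 and Col2a1 lie off it.

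None of the basement membrane collagen probes met either call rule. The mean ratio exceeded the SD of the arrays for 3 of the 6 measured probes (50%), against 28.3% of all measured probes. They were Col18a1, Col15a1 and 1 Col4a3 probe, each by a small value. The median of the 6 measured probes was 0.00, and -0.08 with the software's ratios. On both arrays 1 of 6 (16.7%) was above 0 and 2 of 6 (33.3%) were below, against 19.5% and 17.8% of all measured probes. Col18a1, whose C-terminal fragment is endostatin, had the lowest ratio, -0.21 and -0.09 (-0.15 ± 0.09), with 7.46 and 7.53 in WT and 7.25 and 7.44 in DKO. Both DKO values were below both WT values, and the deposited p-values were 0.131 and 0.526. An added second Col18a1 probe was at -0.11 ± 0.13, also below 0 on both arrays. Col15a1, a related chain of the basement membrane zone, was at -0.07 ± 0.05.

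Type IV chains lay around 0. Col4a6 had the highest ratio among the rule's basement membrane probes, 0.17 and -0.05 (0.06 ± 0.15), while an added Col4a6 probe was at -0.13 ± 0.25. The 3 Col4a3 probes ranged from -0.03 to 0.04, and the brightest of them was at 0.04 ± 0.02. Col4a1 and Col4a2, the chains of the ubiquitous type IV network, were read only by added probes. The Col4a1 probes gave 0.01 ± 0.20 and 0.00 ± 0.11. For Col4a2 the brighter probe gave 8.10 and 8.27 in WT and 7.83 and 8.39 in DKO, a ratio of -0.07 ± 0.27, and the dimmer one 0.02 ± 0.16. All 4 of these probes changed sign with the dyes. An added Col4a4 probe was at -0.03 ± 0.01. With all added basement membrane probes the median was -0.03, from 13 measured probes, and 0 were called.

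None of the other collagen probes met either call rule. Their 13 measured probes had a median of 0.02, and all lay within 0.1 of 0, against 83.2% of all measured probes. On both arrays 4 (30.8%) were above 0 and 1 (7.69%) below, against 19.5% and 17.8%. Col6a1, a chain of the beaded filaments of type VI collagen, had the highest ratio, 0.14 and -0.00 (0.07 ± 0.10), and the Col6a2 probes were at 0.01 ± 0.11 and 0.02 ± 0.06. Of the added probes for the third chain, Col6a3, the brightest was at -0.11 ± 0.14. Col13a1, a transmembrane collagen, had the lowest ratio, -0.05 ± 0.00. The brightest probe of the class, Col8a1, a short-chain network collagen of vessel walls, was at -0.24 and 0.22 (-0.01 ± 0.33), so its arrays differed by more than any genotype mean in the class. The next brightest, Col9a2 and Col19a1 (A_52_P220271), which belong to fibril-associated types, were at 0.02 ± 0.10 and 0.06 ± 0.06. The remaining probes (Col7a1, Col8a2, Col9a1, Col23a1, Col25a1 and the other Col19a1 probe) ranged from -0.03 to 0.05. Not measured were 10 member probes: those of Col10a1, Col17a1, Col4a5 and P4ha2, both of Col12a1, and 1 each of Col11a1, Col15a1, Col1a2 and Col23a1.

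Set side by side, the class medians were -0.06 (fibrillar, 11 probes), 0.00 (basement membrane, 6 probes), 0.02 (other collagens, 13 probes) and -0.04 (modifying, 8 probes). Without Serpinh1 the modifying median was -0.02. The software's ratios gave -0.10, -0.08, 0.02 and -0.09. Over all members 7 of 38 (18.4%) were above 0 on both arrays and 12 of 38 (31.6%) below, with 19 of opposite sign, against 19.5% and 17.8% of all measured probes. Differences between the classes were not tested. The median SD between arrays of a single member probe was 0.07.

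**Figure D4:**
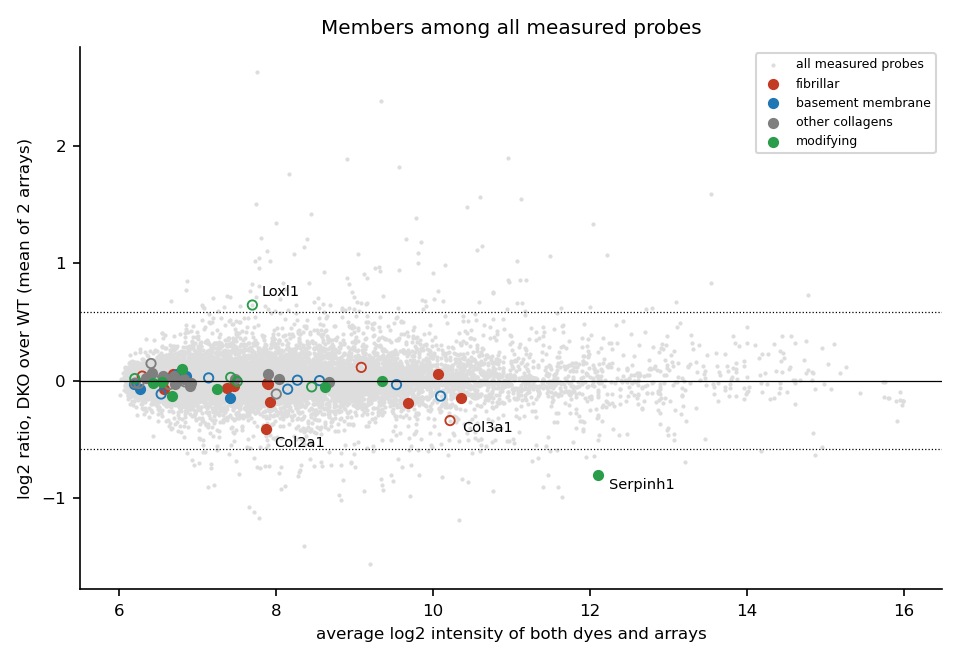
Mean log2 ratio of DKO over WT (vertical) against average log2 intensity (horizontal) for all measured probes (grey) and members coloured by role, filled by the name rule and open when added; dotted lines mark 1.5-fold. Serpinh1 and Loxl1 are the members beyond the dotted lines, and the others lie within them.

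Other genes of the same pathways were counted from lists drawn up with earlier results known, and 0 of them were called by either rule in either direction. Each gene of these lists, and of the cell type marker lists below, was read by 1 probe, the brightest measured one where there was one. Further probes of the same genes were not counted. Of 20 further collagen-processing genes, 13 were measured, with a median of 0.01. Among them Colgalt1, a collagen galactosyltransferase, was at 0.21 ± 0.06, and Crtap, a partner of prolyl 3-hydroxylase, at -0.15 ± 0.07. The fibril-associated proteoglycans and glycoproteins (11 of 11 measured) had a median of -0.03, and decorin (Dcn), which coats collagen fibrils, was at -0.04 ± 0.05. The non-collagen basement membrane genes (10 of 11 measured) had a median of -0.14, with 4 below and 0 above 0 on both arrays (17.8% and 19.5% of all measured probes), but the array medians were -0.11 and 0.03. Lamc1, a laminin chain, was at -0.16 ± 0.06 and Nid2, a nidogen that links laminin to type IV collagen, at -0.20 ± 0.10. The collagen receptors (4 of 5 measured) had a median of 0.03. In the TGF-beta pathway, a main inducer of collagen genes (10 of 11 measured, median 0.04), Ccn2 was at 0.44 ± 0.06, and the receptor Tgfbr2 at -1.09 and -0.24 (-0.67 ± 0.60).

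Several series-wide measurements bear on these values. Rora was at -0.38 ± 0.04 and -0.47 ± 0.10 by its 2 probes, lower in DKO as labelled, and at -0.96 ± 0.07 and -1.52 ± 0.14 by the software's ratios. Neither mean reached 1.5-fold with the offset used, so both call rules missed this disrupted gene. Absence of a call for a member probe has the same limit. Brown adipocyte markers were all measured (10 of 10), with a median of 0.12 and a range from -0.17 (Fabp4, a saturated probe) to 1.89 (Dio2). The 1.5-fold rule called 3 of them higher, Dio2, Elovl3 (1.02 ± 0.02) and Ucp1 (0.73 ± 0.00), against 0.336% of all measured probes, while Cidea, also saturated, was below 0 on both arrays (-0.14 ± 0.02). Fibroblast markers (8 of 9 measured, Fap not) had a median of 0.02, with mean levels of 7.79 and 7.71 in WT and 7.68 and 7.86 in DKO, and endothelial markers (7 of 7) one of -0.09. Smooth muscle and pericyte markers (8 of 8) had a median of -0.01, with a range from -0.25 (Pdgfrb) to 0.35 (Tagln). Of these 8, 3 were below 0 on both arrays (Cspg4, Pdgfrb and Rgs5) and 0 above, against 17.8% and 19.5% of all measured probes. Macrophage markers (5 of 5) had a median of 0.02, keratinocyte markers (5 of 5) 0.01 and Schwann cell markers (4 of 4) -0.11. Skeletal muscle markers (9 of 9) had a median of 0.65, mean levels of 9.66 and 9.42 in WT and 10.02 and 10.34 in DKO, and 6 were called higher in DKO by the 1.5-fold rule, against the same 0.336% (1.8% of bright probes). Their part in the collagen values, Serpinh1 and Loxl1 included, was not tested.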

How the data were processed

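RNA of WT and DKO interscapular brown fat was compared on 2 dual-colour Agilent whole mouse genome arrays with dyes exchanged. Images were read with Agilent Feature Extraction 7.5 per the submitters' processing notes. Mean, median and local background signals were deposited as linear intensity, not normalised, per the file headers. The deposited log10 ratios of red over green and their p-values come from the software's error model, per the file headers. A series table of log2 ratios, also deposited, gives red over green and was equal to the software's within 0.001 for 40962 of 41001 and 41101 of 41141 values, with column medians of 0; Rosetta Resolver is named in the labels as well, without its steps.

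Background was removed from mean signals by normexp (offset 50) and loess-normalised within each array in limma 3.58.1 (R 4.3.3), control spots at weight 0. The sign was turned where DKO was in Cy3, spots of a probe were averaged, outlier spots were left out (171 and 29) and saturated spots kept; no member was saturated. This left 40979 probes. Median signals were 107 to 130 on the arrays' dyes before background subtraction, so dim probes carry little precision, and the number of arrays limits all values. The calculation was tested on simulated data with known changes. There the 2-fold rule called 3 of 50 true 2-fold and 33 of 50 true 3-fold changes. The 1.5-fold rule called 2 of 50 true 1.5-fold and 32 of 50 true 2-fold changes. Of those true 2-fold changes it called 7 of 25 among the dimmer probes and 25 of 25 among the brighter ones.

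Members, lists, classes and call rules were chosen with earlier results of these data known. Genes are named if called, or if among the 3 brightest or the highest or lowest of their class, with the rest by range; Col3a1, Col4a1, Col4a2, Col5a1 to Col5a3, Col6a2, Col15a1, Col24a1, Col27a1, Lox, Loxl1, P4hb, Plod1, Plod2, further added probes and the pathway genes with values were named after their values were seen. Alternatives were median signals, a smaller offset, median centring, the software's ratios, 2 other dim filters, saturated spots left out, the value table, single arrays, 1 probe per gene and added probes. The level of 1 disrupted gene is not reported here.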

Additional observations from a re-analysis of the deposited data

How the results depend on the processing

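Serpinh1 was called lower by the 1.5-fold rule under all 11 settings that give it a value, the reported one included, from -0.83 to -0.66 (median centring), and Loxl1 higher under all 11, from 0.61 to 0.88. These settings are not independent. The dim filters and the removal of saturated spots only change which probes are kept, and could not move either value. The value table repeats the software's ratios. The count of members lower by that rule was 1 to 2 with single arrays: the array with DKO in Cy5 alone added Col2a1 (A_51_P317141). With the added probes, a choice made after seeing the data, the count higher was 1 (Loxl1). The fibrillar median of -0.0648 became -0.0823 with offset 16, -0.101 with ratios as the software or the value table gives them, -0.0590 with median signals, -0.0431 without a dim filter, -0.0539 with 1 probe per gene, -0.0349 with added probes, and turned to 0.0044 with median centring, which raised the median of all measured probes to 0.04 and of the bright ones to 0.14; on single arrays it was -0.0431 to -0.0412. The basement membrane median was -0.0773 from either of those deposited sources, and -0.0789 to 0.0265 on single arrays. In the single-array settings a probe counted as measured by that array alone, which gave 43 and 39 measured members against 38. The medians by array in the Results are over the 38, so the values can differ. Over all measured probes the 1.5-fold rule called 109 higher and 76 lower, 224 and 164 with the software's values, 162 and 49 with median centring, and 142 to 360 and 71 to 262 on single arrays. The causes were not tested. No paired analysis was possible because the arrays count as 1 replicate; every ratio is already a difference within an array. Signals near background leave the ratios of 10 member probes uninterpreted; without separate mice the spread between animals is unknown.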
